A study of Homo sapiens with 40 samples.

Results

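The CCN family holds 6 human genes, CCN1 to CCN6, which also carry the older names CYR61, CTGF, NOV, WISP1, WISP2 and WISP3. Their expression was followed in U87 cells, an established human glioblastoma line, by taking every probe set whose annotation gave 1 of the 6 symbols and no other gene. They are 6 of the 19774 genes with a probe set of 1 symbol on the array, read by 10 of 40920 such probe sets, and 8 of the 10 were among the 33044 bright enough to be tested. The family was chosen by measured values of these same arrays, because CCN5 had been seen to respond to tunicamycin in a way of its own. CCN5 is therefore described without a test throughout, and the tests below concern the other 7 tested probe sets, which read CCN1 to CCN4 and CCN6.

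The study asked how variants of IRE1, a sensor of stress in the endoplasmic reticulum (ER) with a kinase and an RNase domain, act on glioblastoma cells. All 7 lines kept the endogenous IRE1 gene and stably carried a lentiviral vector with a CMV promoter, puromycin resistance and copGFP. The vector was empty (EV) or held wild-type IRE1 (WT), 1 of the variants A414T, P336L, Q780* and S769F, or a dominant-negative form (IRE1-DN), whose cloning only the labels place in this vector. Each line was sampled under basal conditions and under stress, which the methods give as tunicamycin at 0.5 µg/ml for 16 h. Tunicamycin blocks N-glycosylation and so loads the ER with unfolded protein. The 40 arrays fell into 14 groups, of 3 arrays each except the 2 groups of IRE1-DN cells, which had 2 and lacked replicate 1. The methods describe polyclonal populations selected with puromycin, whereas the labels give most lines a clone number, and each construct was represented by a single line. Replicates are labelled as biological, but whether each had its own culture is not stated, and the p-values cover no more than the spread among the arrays at hand.

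CCN proteins are matricellular, that is, secreted into the matrix to modulate signalling rather than to build it, and they bind integrins, heparan sulphate proteoglycans and growth factors. CCN1 and CCN2 are immediate responders to serum, mechanical tension and TGF-beta and are classical targets of the co-activators YAP and TAZ, which act through TEAD factors. CCN3 often opposes CCN2 in matrix production, CCN4 was found as a target of Wnt signalling, and CCN5 lacks the C-terminal domain of the other members and has been tied to growth arrest.

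Signals are log2 values normalized over the arrays, and a log2 difference of 1 is a 2-fold change. A difference passed the test at a Benjamini-Hochberg adjusted p under 0.05 from limma over all probe sets tested. Arrays of a group correlated at a Pearson r of at least 0.9762, and no 2 arrays were identical. The glioma line markers VIM and CD44 were bright on all 40 arrays, at 12.96 to 13.38 and 11.81 to 12.97, whereas the astrocyte marker GFAP exceeded the limit for low signal on 2 arrays and S100B on 0. The immune markers PTPRC and CD14, the endothelial CDH5 and the epithelial CDH1 stayed below that limit on all arrays. Other markers of these cell types exceeded it: AIF1 (immune) on 38 arrays, PECAM1 and VWF (endothelial) on 40 and 33, and EPCAM (epithelial) on 40. The fibroblast markers PDGFRA and DCN did so on 37 and 40. The medians of these markers ran from 4.42 (VWF) to 5.23 (DCN). All 12 ER stress genes tested rose in EV cells on tunicamycin, with a median log2 change of 1.94, among them DDIT3 by 3.92, DNAJB9 by 1.93 and HSPA5 by 0.96, where 24.6% of all probe sets passed. ERN1, which encodes IRE1, was read by 3 probe sets. On the brightest, basal EV cells averaged 6.09, A414T 6.23 and IRE1-DN cells 5.04, and no line passed as higher than EV cells in either condition, whereas IRE1-DN cells were lower in both (-1.05 and -0.99, adjusted p of 0.00489 and 0.00832), as were A414T cells on tunicamycin (-0.72, adjusted p = 0.0395). On the next brightest, 4 lines passed as higher than EV cells on tunicamycin: Q780* by 1.34, S769F by 1.24, A414T by 1.14 and WT by 0.97 (adjusted p from 0.00103 to 0.0179). Of these, S769F and A414T cells also passed without tunicamycin (1.07 and 0.85, adjusted p of 0.0137 and 0.0286). P336L (0.09 and 0.34) and IRE1-DN cells (-0.33 and -0.32) passed in neither condition. These signals thus do not show the labelled constructs in P336L and IRE1-DN cells, and which of the 3 probe sets read the transgenes was not tested.

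CCN1 was high in all lines, with the highest basal means in P336L and IRE1-DN cells. On its brightest probe set, 201289_PM_at, the basal log2 signals of replicates 1, 2 and 3 were 8.83, 10.08 and 9.48 in EV cells and 10.38, 10.87 and 10.86 in P336L cells. On tunicamycin they were 9.18, 9.85 and 8.87 in EV and 10.29, 10.95 and 10.61 in P336L cells. In both conditions every P336L array exceeded every EV array. The difference was 1.24 (SE 0.321, 2.36-fold, adjusted p = 0.013) under basal conditions and 1.32 (SE 0.321, 2.49-fold, adjusted p = 0.00649) on tunicamycin. The other CCN1 probe set, 210764_PM_s_at, which followed the first with r = 0.968 over 40 arrays, gave 1.55 (SE 0.433, adjusted p = 0.0236) and 1.61 (SE 0.433, adjusted p = 0.0144). IRE1-DN cells, at 10.59 and 10.58, also exceeded the basal EV arrays, by 1.12 (SE 0.359, adjusted p = 0.0204), and by 1.73 (SE 0.484, adjusted p = 0.00777) on the other probe set. Against basal WT cells the P336L difference did not pass on either probe set (0.91, adjusted p = 0.266 from limma, and 1.12, adjusted p = 0.352).

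Replicate 2 gave the highest CCN1 signal of the 3 replicates in 12 of 12 groups on 201289_PM_at and in 11 of 12 on 210764_PM_s_at. The spread between replicates was wide for this gene, with an SD of 0.623 in basal EV cells, and the basal calls rested on single arrays. On 201289_PM_at, the P336L difference under basal conditions was 1.16 without P336L replicate 2 (adjusted p = 0.0664), 1.16 without its replicate 3 (adjusted p = 0.0656) and 0.93 without EV replicate 1 (adjusted p = 0.128). On tunicamycin it was 1.1 without EV replicate 3 (adjusted p = 0.0632). On 210764_PM_s_at, the basal difference lost its call without P336L replicate 2 or 3 or EV replicate 1 or 3 (adjusted p of 0.0988, 0.108, 0.184 and 0.0592), and that on tunicamycin without P336L replicate 2 or EV replicate 1 or 3 (0.108, 0.057 and 0.0929). Without EV replicate 1 the IRE1-DN difference fell to 0.81 (adjusted p = 0.139) and 1.32 (adjusted p = 0.0641) on the 2 probe sets. Without IRE1-DN replicate 2 its adjusted p was 0.096 and 0.0741, and without replicate 3 it was 0.102 on 201289_PM_at.

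In the remaining lines CCN1 did not pass as different from EV cells in the fit without a replicate block. On 201289_PM_at the basal signals were 9.00, 9.77 and 8.77 in A414T, 9.05, 9.66 and 8.98 in Q780*, 9.36, 10.24 and 9.63 in S769F, and 9.55, 10.11 and 9.73 in WT cells. Each of these ranges overlapped that of EV cells. On tunicamycin they were 9.35, 9.77 and 9.17 in A414T, 9.48, 10.36 and 9.45 in Q780*, 9.65, 10.01 and 9.73 in S769F, 9.61, 10.65 and 9.94 in WT, and 10.05 and 9.80 in IRE1-DN cells. On 210764_PM_s_at every WT and IRE1-DN array on tunicamycin exceeded every EV array. These differences were 1.13 in WT (adjusted p = 0.113 from limma) and 0.78 in IRE1-DN cells (adjusted p = 0.316). Without a replicate block, CCN1 did not pass the test for a response to tunicamycin in any line. With the replicate number as a block it passed in Q780* and IRE1-DN cells on both probe sets, although the numbers did not pair these arrays. In IRE1-DN cells, where its tunicamycin arrays lay below the basal ones, the difference was -0.66 on 201289_PM_at and -1.06 on the other probe set, and the latter passed when only the arrays compared were fitted (adjusted p = 0.0472). Over the 14 group means, CCN1 was most similar in pattern to DDAH1 (r = 0.848), ATG5 (r = 0.842) and RBM24 (r = 0.833), of 17196 genes compared on the same arrays.

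**Figure D1:**
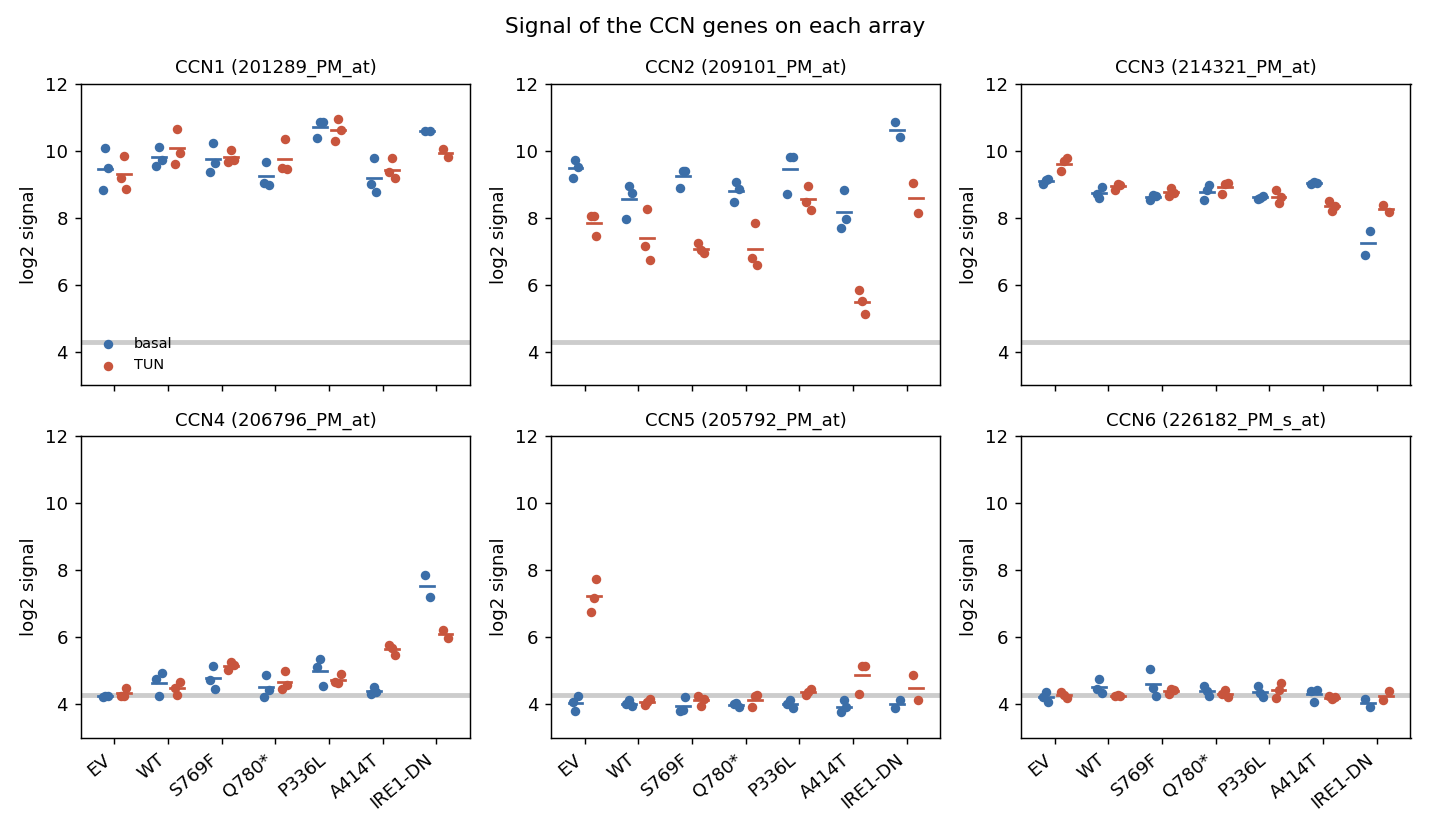
Log2 signal of the brightest probe set of each CCN gene, with 1 point per array, the 7 lines along the x axis, basal and tunicamycin (TUN) groups in different colours, short lines for group means and a grey band for the limit below which signals counted as low (4.23 to 4.31). CCN2 fell on tunicamycin to between 5.12 and 5.84 in A414T cells, CCN4 was highest in basal IRE1-DN cells, CCN5 reached 6.75 to 7.75 only in EV cells on tunicamycin, and levels are not comparable between panels.

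Among the members tested, CCN2 was the one that tunicamycin changed in the most lines, and A414T cells had the least of it in both conditions. The 250 bases before its start are shown because CCN2 is the textbook YAP/TAZ target and its promoter window was given. It lies at chr6:131951373-131951622 on the minus strand of GRCh38.p14 (RefSeq) and reads, 5′ to 3′ along the gene and with each match to the TEAD motif GGAATG in capitals:

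CCN2: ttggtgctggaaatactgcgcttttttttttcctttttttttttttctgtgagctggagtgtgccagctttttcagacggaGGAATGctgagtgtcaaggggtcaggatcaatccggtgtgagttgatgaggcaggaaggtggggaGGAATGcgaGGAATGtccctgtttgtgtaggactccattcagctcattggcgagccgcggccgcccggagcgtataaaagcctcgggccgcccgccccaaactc

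The 3 matches begin 169, 104 and 95 bases upstream of the start. Searched on both strands of windows of 300 bases around the start, GGAATG occurred at least once in 14% of 35116 windows and at least 3 times in 0.128%. CCN6, whose window was also given, held 2 matches, which 1.37% of windows reached. The AP-1 motif TGACTCA (4.95% of windows), the ATF4 motif TGATGNAA (3.62%), the SMAD motif GTCTAGAC (0.202%), the SRF CArG box (1.29%) and the ER stress response element (0.0769%) had no match in these letters in either window. With no match, none of these motifs could overlap a GGAATG match in CCN2.

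On probe set 209101_PM_at, the basal CCN2 signals of replicates 1, 2 and 3 were 9.18, 9.73 and 9.52 in EV cells and 7.70, 8.83 and 7.96 in A414T cells. On tunicamycin they were 8.04, 8.04 and 7.46 in EV and 5.84, 5.53 and 5.12 in A414T cells. The A414T arrays lay below all EV arrays in both conditions, by a wide gap on tunicamycin. The difference was -1.32 (SE 0.372, adjusted p = 0.0126) under basal conditions and -2.35 (SE 0.372, 5.09-fold lower, adjusted p = 1.66e-05) on tunicamycin. The basal call was lost without A414T replicate 1 (adjusted p = 0.083) or 3 (adjusted p = 0.0587) or EV replicate 2 (adjusted p = 0.064), whereas that on tunicamycin held under each of the 20 alternatives run for it. Basal WT cells, at 7.96, 8.95 and 8.73, lay below all EV arrays too, by 0.93 on the log2 scale (adjusted p = 0.172), and passed only with the replicate number as a block, where the numbers paired these arrays (adjusted p = 0.0407). The basal A414T signals overlapped those of WT cells, and their difference did not pass (-0.38, adjusted p = 0.65 from limma).

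Basal CCN2 was highest in IRE1-DN cells, at 10.86 and 10.40, above all EV arrays by 1.15 (SE 0.416, adjusted p = 0.0428). This call was weak: without IRE1-DN replicate 2 the difference was 0.92 (adjusted p = 0.258), without IRE1-DN replicate 3 it was 1.38 (adjusted p = 0.0772), and without EV replicate 1 or 3 the adjusted p was 0.135 or 0.0686. The ACTB 3' minus 5' log2 signal, a measure of RNA integrity, was 1.080 and 1.071 on the 2 basal IRE1-DN arrays and 1.761, 2.033 and 1.817 on the basal EV arrays. With that measure as a covariate the CCN2 difference was 0.48 (adjusted p = 0.622), and those of the 2 CCN1 probe sets were 1.0 (adjusted p = 0.154) and 1.38 (adjusted p = 0.136). A spiked hybridization control, bioB, read 6.436 on EV replicate 1 and at least 6.615 on the other basal EV and IRE1-DN arrays, and as a covariate it gave 0.76 for CCN2 (adjusted p = 0.21) and 0.86 (adjusted p = 0.0989) and 1.3 (adjusted p = 0.0501) for CCN1.

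Tunicamycin lowered CCN2 in 6 of 7 lines. In EV cells it fell by 1.63 (SE 0.372, 3.1-fold, adjusted p = 0.00112). The fall was -2.16 in S769F (adjusted p = 3.61e-05), -1.72 in Q780* (adjusted p = 0.000516), -2.66 in A414T (SE 0.372, 6.34-fold, adjusted p = 1.19e-06), -2.04 in IRE1-DN (adjusted p = 0.0016) and -1.16 in WT cells (adjusted p = 0.0212). In WT cells the signals on tunicamycin, at 7.17, 8.25 and 6.73, overlapped the basal ones, and leaving out WT basal replicate 2 or 3 or WT tunicamycin replicate 1 or 3 lost the call (adjusted p of 0.117, 0.0592, 0.0707 and 0.16). In IRE1-DN cells, at 9.05 and 8.13 on tunicamycin, the call was lost without tunicamycin replicate 3 (-1.57, adjusted p = 0.0633), and with the ACTB covariate (-1.38, adjusted p = 0.087).

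S769F cells went from 8.90, 9.40 and 9.40 to 7.25, 7.04 and 6.94, and Q780* cells from 8.47, 9.06 and 8.85 to 6.81, 7.84 and 6.58, with no overlap between conditions. In P336L cells the fall did not pass. Their CCN2 signals were 8.72, 9.81 and 9.80 under basal conditions and 8.47, 8.95 and 8.24 on tunicamycin, a difference of -0.89 (SE 0.372, adjusted p = 0.0948), and the conditions overlapped. It passed without basal replicate 1 (-1.25, adjusted p = 0.0244) and with the bioB covariate (-1.11, adjusted p = 0.02). The responses of the lines could not be told apart from that of EV cells: the difference of responses was 0.74 in P336L (SE 0.526, adjusted p = 0.799) and -1.03 in A414T cells (SE 0.526, adjusted p = 0.361). The genes most similar to CCN2 over the 14 group means were MAP3K1 (r = 0.957), SCHIP1 (r = 0.931) and CDH2 (r = 0.93), the last of which encodes N-cadherin.

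CCN3, a member known for restraining proliferation in several cell types, was read by a pair of probe sets that followed each other with r = 0.875 over 40 arrays. It was lowest in basal IRE1-DN cells, and on tunicamycin it was lower in every line than in EV cells. There A414T and IRE1-DN cells were about equally low, with means of 8.34 and 8.28 on 214321_PM_at and 6.47 and 6.51 on 204501_PM_at. On 214321_PM_at, the basal signals were 9.01, 9.13 and 9.16 in EV cells and 6.88 and 7.61 in IRE1-DN cells, and on tunicamycin 9.39, 9.69 and 9.77 in EV cells and 8.37 and 8.18 in IRE1-DN cells. The groups did not overlap in either condition. The basal difference was -1.86 (SE 0.16, 3.62-fold lower, adjusted p = 1.47e-10) and that on tunicamycin -1.34 (SE 0.16, 2.53-fold lower, adjusted p = 1.19e-07). On 204501_PM_at they were -1.73 (SE 0.318, adjusted p = 9.11e-05) and -1.6 (SE 0.318, adjusted p = 0.000266).

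The response of CCN3 to tunicamycin went in opposite directions in EV and A414T cells. It rose by 0.52 in EV cells on 214321_PM_at (SE 0.144, adjusted p = 0.00716) and by 1.01 on 204501_PM_at (SE 0.284, adjusted p = 0.00794). In A414T cells it went from 9.01, 9.06 and 9.03 to 8.49, 8.19 and 8.36 on the first, a fall of 0.69 on the log2 scale (-0.69, SE 0.144, adjusted p = 0.000346), and on the second from 7.20, 7.50 and 7.39 to 7.11, 6.10 and 6.19 (-0.89, SE 0.284, adjusted p = 0.0171). On neither probe set did the A414T conditions overlap. The difference of the responses was -1.2 (SE 0.203, adjusted p = 0.000279) and -1.9 (SE 0.402, adjusted p = 0.00356), and both held under all alternatives run for them.

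Some of these responses rested on single arrays. On 204501_PM_at the A414T response had an adjusted p of 0.0633 without basal replicate 2, 0.111 without tunicamycin replicate 2 and 0.0935 without tunicamycin replicate 3, and the EV response one of 0.051 without tunicamycin replicate 2. On 214321_PM_at the EV response was 0.44 without tunicamycin replicate 3 (adjusted p = 0.0528). CCN3 also rose in IRE1-DN cells, by 1.03 (SE 0.176, adjusted p = 6.19e-05) on 214321_PM_at and 1.13 (SE 0.348, adjusted p = 0.0233) on 204501_PM_at. That rise passed on neither when only the arrays compared were fitted (adjusted p of 0.125 and 0.181 from limma). On 204501_PM_at this was 0.63 (adjusted p = 0.405) without basal replicate 2 and 0.96 (adjusted p = 0.186) without tunicamycin replicate 3.

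In the other lines CCN3 did not pass the test for a response to tunicamycin. On 204501_PM_at the difference was 0.34 in WT, 0.39 in S769F and 0.63 in Q780* cells (SE 0.284, adjusted p = 0.0956 in Q780*), with no overlap between conditions, and 0.25 in P336L cells, where they overlapped. That in Q780* cells passed when only the arrays compared were fitted (adjusted p = 0.0217) and with the ACTB covariate (0.98, adjusted p = 0.001), and that in S769F cells with the ACTB covariate (0.94, adjusted p = 0.00404). On 214321_PM_at the basal signals were 8.57, 8.60 and 8.65 in P336L, 8.53, 8.82 and 8.97 in Q780*, 8.53, 8.68 and 8.66 in S769F, and 8.72, 8.58 and 8.91 in WT cells. On tunicamycin they were 8.83, 8.44 and 8.62 in P336L, 8.70, 9.00 and 9.04 in Q780*, 8.65, 8.88 and 8.75 in S769F, and 8.83, 9.01 and 8.97 in WT cells. All of these arrays lay below every EV array of their condition. On tunicamycin the difference from EV passed in A414T (-1.27, adjusted p = 5.72e-08), P336L (-0.99, adjusted p = 1.16e-05), Q780* (-0.7, adjusted p = 0.00129), S769F (-0.85, adjusted p = 0.000139) and WT cells (-0.68, adjusted p = 0.00154). These comparisons share the same 3 EV arrays.

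On 204501_PM_at the difference on tunicamycin passed in P336L (-1.32, adjusted p = 0.00199) and A414T cells (-1.64, adjusted p = 5.86e-05), and it was -0.77 in Q780* (adjusted p = 0.112), -0.9 in S769F (adjusted p = 0.0537) and -0.77 in WT cells (adjusted p = 0.0937). With the ACTB covariate these 3 passed as well, at -0.98, -1.04 and -1.04 (adjusted p of 0.00312, 0.0017 and 0.00177). For P336L cells, whose numbers paired the arrays, a replicate block on only the arrays compared gave an adjusted p of 0.119. Under basal conditions the small differences on 214321_PM_at in S769F (-0.48, adjusted p = 0.0493) and P336L cells (-0.49, adjusted p = 0.031) passed narrowly. Leaving out any 1 of the 6 arrays lost the call in S769F cells (adjusted p from 0.067 to 0.179), and a replicate block on only the arrays compared gave an adjusted p of 0.115. In P336L cells the call was lost without any of its own arrays or EV replicate 2 or 3 (adjusted p from 0.0685 to 0.102).

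**Figure D2:**
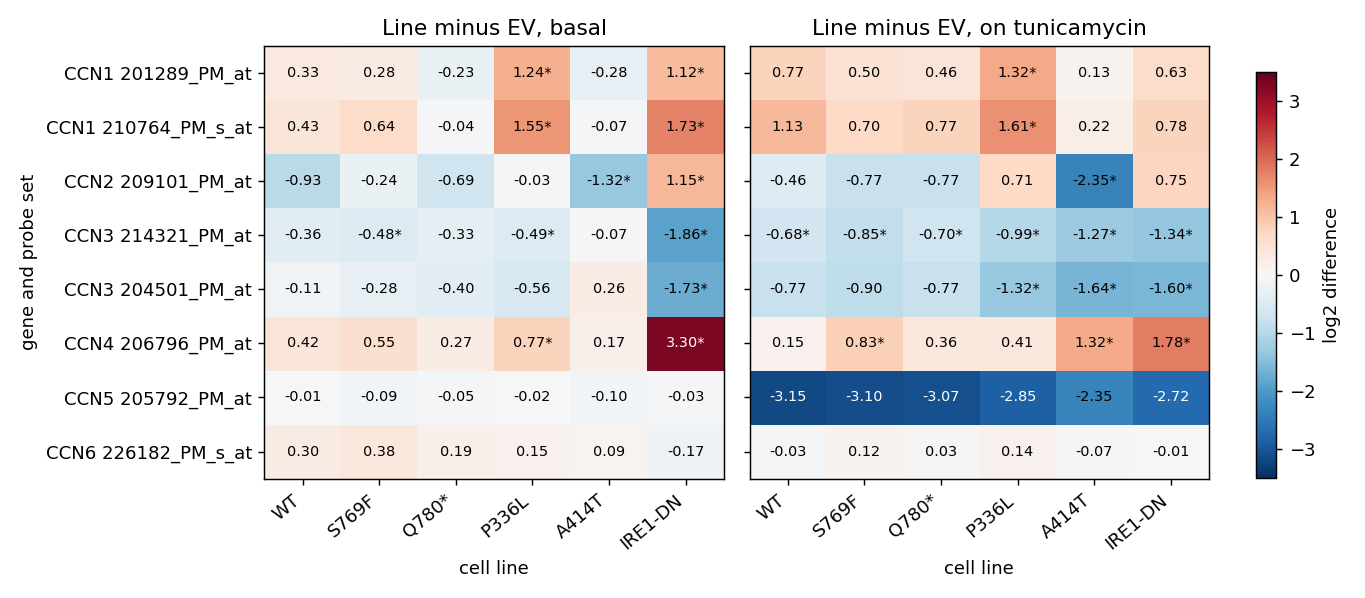
Log2 difference of each line from EV cells under basal conditions (left) and on tunicamycin (right) for the 8 CCN probe sets bright enough to be tested, with an asterisk where the difference passed the test. CCN4 in basal IRE1-DN cells (3.30) was the highest and CCN2 in A414T cells on tunicamycin (-2.35) the lowest of the differences that passed, and CCN5 carries no asterisk because it was not tested.

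CCN4 was near background in EV cells and was raised most in IRE1-DN cells. On 206796_PM_at, its basal signals were 4.22, 4.26 and 4.24 in EV cells, at the limit for low signal (4.23 to 4.31), and 7.86 and 7.22 in IRE1-DN cells. On tunicamycin they were 4.25, 4.25 and 4.49 in EV and 6.22 and 5.99 in IRE1-DN cells. IRE1-DN cells thus lay far above EV cells in both conditions, by 3.30 (SE 0.228, 9.87-fold, adjusted p = 1.02e-12) and by 1.78 (SE 0.228, 3.43-fold, adjusted p = 3.86e-07). Both held under all 19 alternatives run for each. Against the limit for low signal, which the basal EV arrays did not reach, the basal fold was at least 9.53.

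In A414T cells CCN4 was just above the limit for low signal under basal conditions and rose with tunicamycin. It went from 4.32, 4.51 and 4.37 to 5.77, 5.69 and 5.48, a rise of 1.24 (SE 0.204, 2.37-fold, adjusted p = 1.42e-05). In IRE1-DN cells it fell by 1.43 (SE 0.249, adjusted p = 7.96e-05), which did not pass when only the arrays compared were fitted (adjusted p = 0.0563). Both responses differed from that of EV cells, by 1.15 in A414T (SE 0.288, adjusted p = 0.0154) and by -1.52 in IRE1-DN cells (SE 0.322, adjusted p = 0.00458). The latter was -1.2 without IRE1-DN basal replicate 2 (adjusted p = 0.0745). With replicates 2 and 3 alone neither difference of responses passed (1.02 in A414T, adjusted p = 0.192 from limma, and -1.55 in IRE1-DN cells, adjusted p = 0.0506). On tunicamycin A414T cells exceeded EV cells by 1.32 (SE 0.204, adjusted p = 1.15e-05).

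Smaller differences in CCN4 passed in S769F cells on tunicamycin and in P336L cells under basal conditions. S769F cells, at 5.03, 5.27 and 5.17, exceeded EV cells by 0.83 (SE 0.204, adjusted p = 0.00893), and basal P336L cells, at 5.11, 5.36 and 4.56, by 0.77 (SE 0.204, adjusted p = 0.0151). The P336L call was lost without P336L replicate 1 (0.72, adjusted p = 0.059) or replicate 2 (0.6, adjusted p = 0.147). Signals in the remaining groups of 3 arrays ran from 4.21 to 5.16 under basal conditions and from 4.28 to 4.99 on tunicamycin. The other CCN4 probe set, 211312_PM_s_at, stayed at 3.56 to 4.29 on all arrays, below the limit, and did not show the pattern of 206796_PM_at.

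Over the 14 groups, CCN4 and CCN3 ran in opposite order, with r = -0.926 between the group means of 206796_PM_at and 214321_PM_at. Without the 2 IRE1-DN groups, which lie farthest from the median of CCN4, r was -0.767 over 12 groups, and it was -0.991 over the 7 basal groups and -0.846 over the 7 tunicamycin groups. Both genes were read on the same arrays, the groups share the EV background, and each construct was 1 line, so these values describe 7 lines and carry no test. In bulk RNA, fewer cells with the transcript and less of it per cell cannot be told apart.

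**Figure D3:**
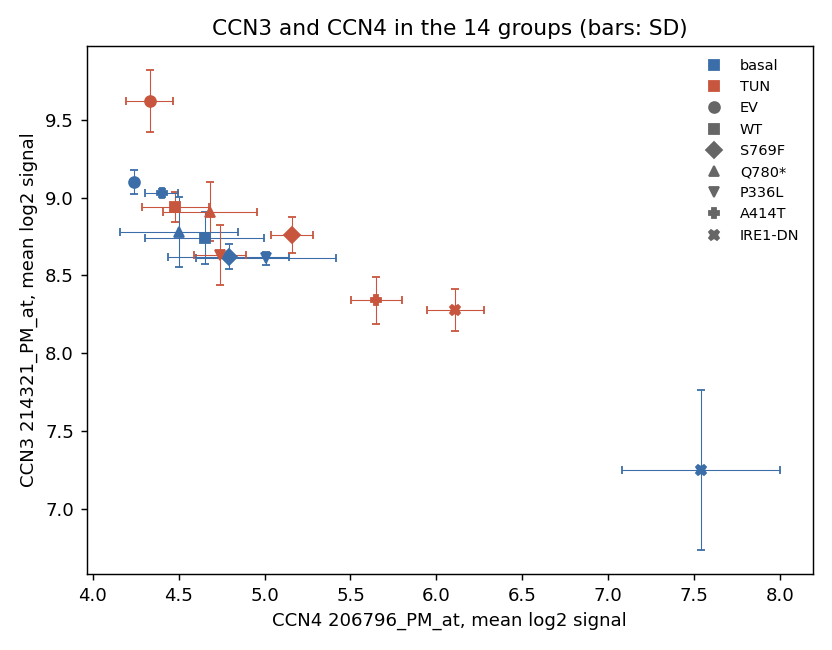
Mean log2 signal of CCN3 (y axis) against CCN4 (x axis) in the 14 groups, with bars for the SD, a marker shape for each line and a colour for the condition. Basal IRE1-DN cells lie apart at 7.54 for CCN4 and 7.25 for CCN3, IRE1-DN and A414T cells on tunicamycin come next at 6.11 and 5.65 for CCN4, and EV cells on tunicamycin hold the highest CCN3 (9.62).

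CCN5, the member that chose the family, was below the limit for low signal on all basal arrays and was highest by far in EV cells on tunicamycin. On 205792_PM_at, the basal signals were 4.07, 3.81 and 4.24 in EV cells and between 3.76 and 4.23 on all other basal arrays. On tunicamycin EV cells reached 6.75, 7.17 and 7.75, a mean of 7.22 ± 0.501 (SD, n = 3) against 4.04 ± 0.219 (SD, n = 3), a difference of 3.18. Since the basal arrays lay below the limit, the fold has only a lower bound, and against that limit it was at least 7.65-fold higher. A414T cells came next, at 4.31, 5.15 and 5.16, followed by IRE1-DN cells, at 4.89 and 4.12, and P336L cells, at 4.29, 4.38 and 4.45. WT cells, at 3.98, 4.08 and 4.16, S769F cells, at 4.25, 3.96 and 4.15, and Q780* cells, at 3.92, 4.25 and 4.27, stayed near or below the limit. The A414T response was thus 0.94 and that of the other variant, WT and IRE1-DN lines 0.04 to 0.49. CCN5 exceeded the limit on 11 arrays, all on tunicamycin, which were 3 each of EV, A414T and P336L cells and 1 each of IRE1-DN and Q780* cells, and was bright enough to be tested only through them.

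The genes with a pattern most similar to CCN5 over the 14 group means were HAGHL (r = 0.944), DALRD3 (r = 0.891) and SLC7A4 (r = 0.888), which encodes a transporter of the cationic amino acid family. HAGHL was 5.26 ± 0.371 (SD, n = 3) in basal EV cells and 6.24 ± 0.338 (SD, n = 3) in EV cells on tunicamycin, and between 5.2 and 5.56 in the other groups. SLC7A4 was 4.37 and 5.43 in the same pair of groups and between 3.78 and 4.2 elsewhere. CCN6 was dim throughout: 226182_PM_s_at ran from 3.92 to 5.05, passed in none of the 29 comparisons, and its other probe set stayed at 3.34 to 3.76.

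**Figure D4:**
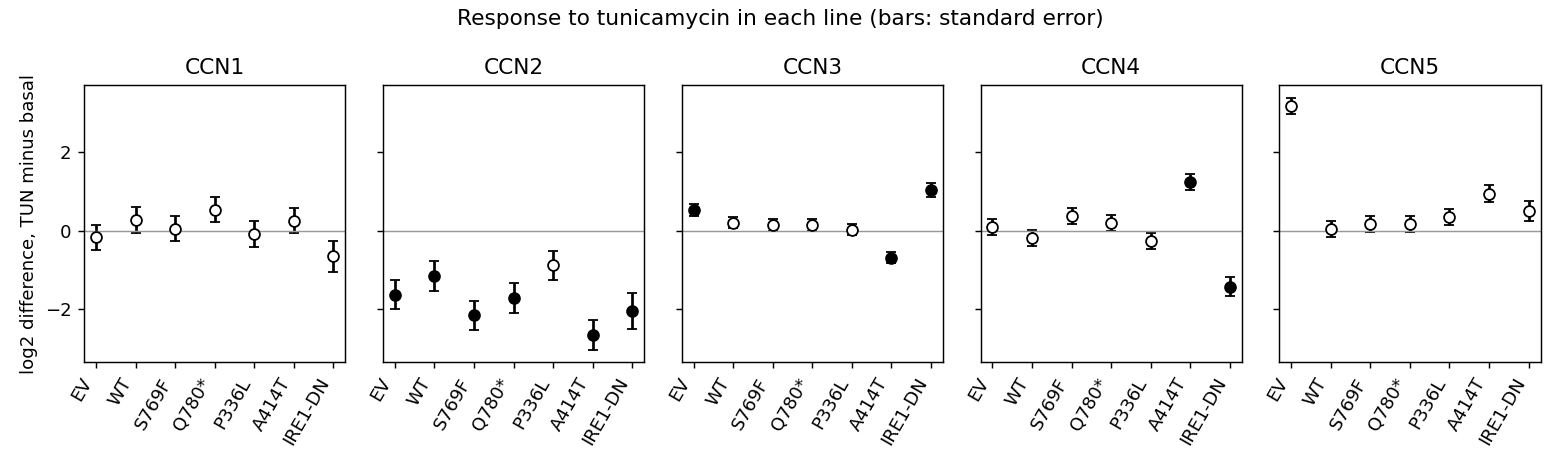
Log2 difference between tunicamycin and basal arrays in each line for the brightest probe set of CCN1 to CCN5, with bars for the standard error and filled points where the response passed the test. CCN2 fell in 6 of 7 lines, CCN3 and CCN4 moved in opposite directions in A414T and in IRE1-DN cells, and CCN5, which was not tested, rose by 3.18 in EV cells. The CCN3 and CCN4 responses in IRE1-DN cells rest on 2 arrays per group and did not pass when only those arrays were fitted.

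Counted over the 7 tested probe sets, 6 passed in IRE1-DN cells against EV cells under basal conditions, the most of any line in that comparison, with 4 higher and 2 lower, where 23.5% of all probe sets passed. In P336L cells 4 passed, 3 higher and 1 lower, against 6.59% of all. In S769F cells 1 passed (4.46% of all) and in A414T cells 1 (14.6% of all), while 0 passed in WT (6.01% of all) and Q780* cells (3.56% of all). By unadjusted p under 0.05 from limma, 2 would pass in WT and 1 in Q780* cells. Over all 6 lines 12 passed, but only 5 did when each comparison was fitted on its own arrays, 7 without P336L basal replicate 2 and 6 without EV basal replicate 1.

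On tunicamycin, 4 of 7 passed against EV cells in P336L (8.87% of all) and A414T cells (19.4% of all) and 3 in IRE1-DN cells (21.5% of all). In S769F cells 2 passed (6.39% of all), and 1 each in WT (9.18% of all) and Q780* cells (7.08% of all). The response to tunicamycin itself passed for 4 of 7 in A414T (27.3% of all) and IRE1-DN cells (15% of all) and for 3 in EV cells (24.6% of all). It passed for 1, CCN2, in WT (24.1% of all), S769F (24.7% of all) and Q780* cells (30.2% of all), and for 0 in P336L cells (20.3% of all), with 1 by unadjusted p. With 7 probe sets, 1 call is 14.3% of them, so nothing is read from where these shares lie against those of all probe sets.

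The difference of a line's response from that of EV cells passed for 3 of 7 probe sets in A414T cells, where 4.26% of all passed, and for 1 in IRE1-DN cells (3.31% of all). It passed for 0 in WT (0.312% of all), S769F (0.3% of all), Q780* (0.584% of all) and P336L cells (0.484% of all), with 1 by unadjusted p in P336L cells and 0 in the others. Against basal WT cells, 0 passed in S769F (1.41% of all), Q780* (1.25% of all), P336L (1.22% of all) and A414T cells (11.5% of all), with unadjusted p giving 3 in P336L, 1 in A414T and 0 in S769F and Q780* cells.

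The wider pathways around the family were counted with 1 probe set per gene, the brightest, against EV cells under basal conditions. The shares of all given beside them count every tested probe set, with several for some genes, and so are not the same measure. Of 14 genes of the SRF and MRTF axis, which controls the actin cytoskeleton, 10 were higher and 1 lower in IRE1-DN cells, with a median log2 difference of 2.07. Among them, TAGLN, which encodes transgelin, was higher by 6.31 (SE 0.234; 3.78 in P336L cells) and ACTA2, smooth muscle actin, by 4.22 (SE 0.147), whereas MRTFB was lower (-0.85), as in all 6 lines. In A414T cells 4 were higher and 1 lower, with ACTA2 up by 1.65 and TPM2, a tropomyosin, by 1.12. The share that passed was 78.6% in IRE1-DN and 35.7% in A414T cells, where 23.5% and 14.6% of all probe sets passed.

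Of 18 other targets of YAP/TAZ and TEAD, 9 were higher and 2 lower in IRE1-DN cells (61.1%, where 23.5% of all passed), with a median of 0.36. F3, tissue factor, was higher by 3.57 (SE 0.277) and RBMS3 by 3.16, whereas FJX1 (-2.85) and NT5E (-1.82), which encodes the ectonucleotidase CD73, were lower. In A414T cells, where CCN2 was lower, 3 of the 18 were higher and 2 lower (27.8%, where 14.6% of all passed). F3 was higher there (1.56), as it was in all 6 lines (from 1.06 to 3.57), and IGFBP3 (-2.23) and TGFB2 (-1.02) were lower. P336L cells, where CCN1 passed as higher and CCN2 did not pass, had 4 higher and 1 lower, a share of 27.8% where 6.59% of all probe sets passed. Of the 18 Hippo pathway genes and TEAD factors themselves, 3 were higher and 3 lower in IRE1-DN cells (33.3%, where 23.5% of all passed) and 2 higher and 2 lower in A414T cells (22.2%, where 14.6% of all passed). TEAD3 was higher in both (1.49 and 0.85) and also in P336L cells (0.72). The scaffold gene WWC1, which encodes KIBRA, was lower in both (-1.57 and -2.57) and also in WT (-0.93), S769F (-1.1) and Q780* cells (-1.08). WWTR1, the gene of TAZ, was lower in IRE1-DN cells (-0.49, SE 0.144, adjusted p = 0.0114 from limma).

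TGF-beta and SMAD targets split between the lines. In IRE1-DN cells 8 of 14 were higher and 2 lower (71.4%, where 23.5% of all passed), with the pseudoreceptor gene BAMBI up by 4.76 (SE 0.222), PMEPA1 by 2.82 (SE 0.206) and LTBP2 lower (-1.54). In A414T cells 2 were higher and 4 lower (42.9%, where 14.6% of all passed). BAMBI was higher there (2.26), as in all 6 lines (from 0.7 to 4.76), but PMEPA1 (-1.0) and FN1, fibronectin (-0.84), were lower. Of 12 Wnt targets, 2 were higher and 0 lower in IRE1-DN cells (LEF1 by 1.09 and DKK1 by 0.85) and 1 higher and 1 lower in A414T cells, a share of 16.7% in each, where 23.5% and 14.6% of all passed. Of 17 immediate-early genes, 2 were higher and 2 lower in IRE1-DN cells, which at 23.5% is the share of all probe sets, and 4 higher and 1 lower in A414T cells (29.4%, where 14.6% of all passed).

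Among 14 genes for CCN receptors and co-receptors, 3 were higher and 0 lower in IRE1-DN cells (21.4%, where 23.5% of all probe sets passed) and 1 higher and 3 lower in A414T cells (28.6%, where 14.6% of all passed). ITGA6, the integrin alpha 6 chain through which CCN1 can bind cells, was higher by 3.48 (SE 0.299) and 2.58 (SE 0.267) in these lines and by 4.07 in P336L cells. LRP6, a Wnt co-receptor to which CCN2 can bind, was higher in IRE1-DN cells (0.81), and ITGB5 (-1.81) and the proteoglycan gene SDC4 (-0.35) were lower in A414T cells. In the other 4 lines 0 to 5 genes of each list passed, where 3.56% to 6.59% of all probe sets passed, and no test compared a list with other genes. Some shares there were as large as in A414T cells. The SRF and MRTF axis reached 35.7% in P336L (6.59% of all) and 28.6% in S769F cells (4.46% of all). YAP/TAZ and TEAD targets reached 27.8% in WT cells (6.01% of all).

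**Figure D5:**
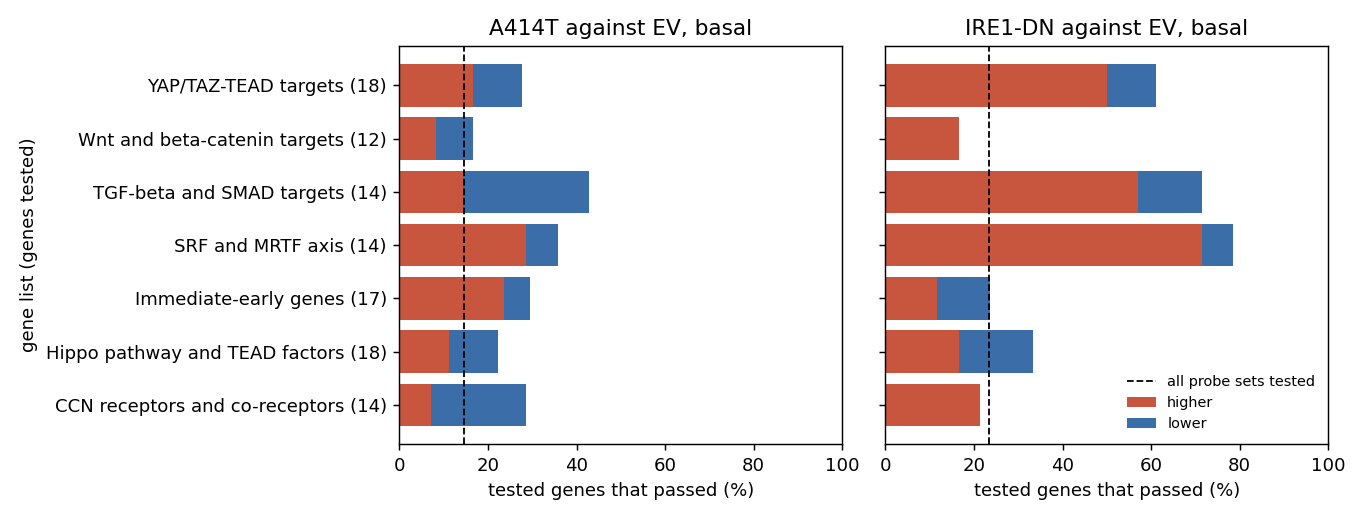
Share of the tested genes of each list (%) that were higher or lower than in EV cells under basal conditions in A414T (left) and IRE1-DN cells (right), with a dashed line for the share of all probe sets (14.6% and 23.5%). The SRF and MRTF axis reached 78.6% and the TGF-beta and SMAD targets 71.4% in IRE1-DN cells, whereas the Wnt targets (16.7%) and receptors (21.4%) lay below the line there.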

How the data were processed

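RMA had been run by the authors, and the log2 signals it gave were deposited. It corrects background, normalizes quantiles over arrays and summarises probe sets, and so removes shifts shared by most genes and compresses folds of dim genes. The RMA version and the set of arrays normalized together were not given in the sources used here. Left out were 864 probe sets with several symbols and 12931 with none, of 54715. Symbols of 40864 were updated through Entrez ID. Probe sets at or above the 40th percentile of an array (4.23 to 4.31) on at least 2 arrays were tested, 33044 of 17202 genes.

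A model of the 14 group means was fitted to the 40 arrays in R 4.3.3 (limma 3.58.1, with 3.361 prior and 26 residual degrees of freedom), for 29 comparisons with no fold minimum and no replicate block. Precision is limited by the number of arrays. Tested on simulated data, the fit called 93% of probe sets made to differ by 1.5 (log2) in basal A414T cells and 67% of those made to differ by 1, and in the P336L response 70% and 46%. Noise was drawn independently for each array, and 100 of 33044 probe sets were changed by each amount. In the real basal A414T comparison 4809 passed, so these shares may not hold for the real arrays. Members and gene lists were chosen with earlier results of these data known. Named were all CCN probe sets, the 3 genes most similar to CCN1, CCN2 and CCN5, ERN1, HSPA5, DDIT3, DNAJB9 and some of the cell type markers. List genes were named from among the 2 highest and the 2 lowest of each list that passed in A414T and in IRE1-DN cells. Not all of those are named.

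Replicate numbers were taken to pair the arrays where each same-number correlation of deviations exceeded 0.1, which held in 6 of 23 comparisons of 2 groups (r from -0.477 to 0.669): WT, S769F and Q780* against EV and S769F and Q780* against WT under basal conditions, and P336L against EV on tunicamycin. Alternatives were other filters, 1 probe set per gene, median centring, a second quantile normalization, a fit to the compared arrays alone, robust eBayes with a trend, a 2-fold minimum, the methods' t-test, a replicate block and leaving out each array. A block on only the arrays compared, bioB and ACTB covariates and replicates 2 and 3 alone were added after the data were seen. The promoter windows given covered 2 of the 6 genes. Scanner files were not used here. Figures were drawn with matplotlib in Python.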

Additional observations from a re-analysis of the deposited data

Results flagged for a closer look

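The response of CCN3 to tunicamycin differed between A414T and EV cells by -1.2 on 214321_PM_at and by -1.9 on 204501_PM_at in the test of the difference itself. That of CCN4 on 206796_PM_at differed from EV cells by 1.15 in A414T cells and by -1.52 in IRE1-DN cells in the same test.

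Probe set 229802_PM_at is annotated to both CCN4 and WISP1-OT1, a transcript named after the CCN4 locus, and so entered no comparison, but it gave a signal above that of control cells. It was 4.02, 4.01 and 3.86 in basal EV cells. In IRE1-DN cells it was 9.19 and 8.63 under basal conditions, a mean of 8.91, and 8.08 and 7.96 on tunicamycin. In A414T cells it was 4.29, 3.98 and 4.11 under basal conditions and 7.28, 7.48 and 7.36 on tunicamycin, a mean of 7.38. Group means of the WT, S769F, Q780* and P336L lines ran from 4.68 to 5.28. Which of the 2 transcripts it read was not tested.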

How the results depend on the processing

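Of 203 member comparisons tested, 45 passed, 11 of them under every alternative run, and none reversed. Main counts were 12 under basal conditions, 15 on tunicamycin, 14 for responses, 4 for differences of responses and 0 against WT; for the lists, they were 32 (YAP/TAZ), 18 (Hippo), 28 (TGF-beta), 28 (SRF), 20 (immediate-early), 11 (Wnt) and 11 (receptors) over 6 lines. With a 2-fold minimum the lists, in that order, gave 19, 5, 12, 12, 7, 2 and 4, and with only the arrays compared 18, 6, 17, 15, 12, 5 and 7, with 5 basal members. The methods' t-test, once adjusted by Benjamini-Hochberg, gave 1 member under basal conditions, 4 on tunicamycin and 5 responses, and 9, 3, 9, 12, 3, 1 and 4 for the lists. Without adjustment it gave 4 members against WT and 18 receptors. It was not run for differences of responses. Replicates 2 and 3 alone gave 3 basal members, 2 differences of responses, 11 Hippo and 11 immediate-early genes. In each the cause was not tested.

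With the replicate block over all arrays 12 more member comparisons passed and 0 were lost. Against basal WT cells 3 then passed: CCN1 was higher in P336L cells by 0.91 (adjusted p = 0.00238 from limma) and 1.12 (adjusted p = 0.0109) and lower in A414T cells (-0.61, adjusted p = 0.0152). The numbers did not pair the arrays of these comparisons. CCN1 in WT cells on tunicamycin then exceeded EV cells by 0.77 (adjusted p = 0.00286) and 1.13 (adjusted p = 0.0021), where the numbers did not pair the arrays either. The same held for Q780* cells on tunicamycin on 210764_PM_s_at (0.77, adjusted p = 0.0476), again with arrays that the numbers did not pair. The response to tunicamycin, where the numbers did not pair the arrays, then passed for CCN1 in Q780* (0.53, adjusted p = 0.0186, and 0.71, adjusted p = 0.0264) and IRE1-DN cells (-0.66, adjusted p = 0.0292, and -1.06, adjusted p = 0.013) and for CCN2 in P336L cells (-0.89, adjusted p = 0.0214). Beyond the changes given with the results, it changed no other call where numbers paired the arrays. Leaving out each array in turn gave 6 to 12 basal members, 7 (without EV basal replicate 1) to 12 Wnt targets, and 2.92 to 3.42 for the CCN5 response in EV cells.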

Other observations

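Beside CCN1, replicate 2 was the highest of the 3 replicates in all 12 groups of 3 for 6 other probe sets of the 33044 tested. These read DUSP1, KLF6 and MYC, which are immediate-early genes like CCN1, the chemokine gene CXCL2, ADM, which encodes adrenomedullin, and VIM. They were 7 probe sets in all, or 0.0212% of those tested, and were named after their values were seen. Neither the labels nor the methods say what a replicate number stands for, and what it marks was not tested.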
